A study of Homo sapiens with 2 samples.

Results

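The 10 regulators around the transcription factor ATF4 were described, namely ATF4, CEBPG, CEBPB, ATF3, ATF5, DDIT3, TRIB3, SESN2, DDIT4 and CHAC1. They were taken by gene symbol, and all 10 had a record among the 11420 records of the table. The group was chosen by measured values of these same 2 libraries, so its levels and ratios are given as a description, with no test.

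The study asked how mRNA levels differed in HCT116 cells, a human colorectal carcinoma line, once the long noncoding RNA LAST was depleted. Cells grown in DMEM with fetal bovine serum were infected with lentivirus carrying either a control shRNA or a LAST shRNA, and RNA was taken 96 hr after infection. There was 1 library per group, and both groups shared the cell line, the virus and the time. LAST itself was not analysed here, so its knockdown does not check the labels in these values. No replicate error exists for any value below. A difference between the libraries cannot be told apart from a difference between 2 cultures or 2 library preparations. The knockdown cells carried LAST shRNA-1 alone, so an off-target effect of this hairpin cannot be told apart from loss of LAST.

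ATF4 is the central factor of the integrated stress response. Kinases that sense amino acid shortage, unfolded protein in the endoplasmic reticulum, double-stranded RNA or haem deficiency phosphorylate eIF2alpha, which lowers translation of most mRNAs and raises translation of the ATF4 mRNA through its upstream reading frames. ATF4 then pairs with C/EBP proteins on C/EBP-ATF response elements (CARE) and turns on genes of amino acid supply, feedback and, under lasting stress, cell death. The table holds mRNA levels only, so the translation of ATF4 was not measured.

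Promoter sequence was examined for letters that factors of this network are known to bind. RefSeq start sites on GRCh38.p14 gave 19 windows for the 10 genes, each 300 bases long with 250 bases before the start and 50 after it. The CARE core TGATGNAA, the cAMP response element TGACGTCA and the E-box CACGTG were sought on both strands. The 4 stretches below are those with a match in the genes' windows, shown because they carry the only matches found. Capitals mark the matched letters.
CEBPG, chr19:33374060-33374089, plus strand: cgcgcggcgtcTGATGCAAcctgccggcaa
ATF3, chr1:212565205-212565234, plus strand: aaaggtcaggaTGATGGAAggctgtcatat
CHAC1, chr15:40953251-40953280, plus strand: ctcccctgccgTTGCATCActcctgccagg
ATF4, chr22:39520466-39520493, plus strand: gaggagacggtCACGTGgtcgcggcgga

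The CARE core lay in a window of 3 regulators, CEBPG, ATF3 and CHAC1. In CEBPG the match began at position -42 relative to a start site, in ATF3 at -191 and in CHAC1 at -209, where it was read on the opposite strand and overlapped annotated exons. Across RefSeq, 4.46% of 27305 genes and 3.62% of 35116 windows held these letters. The E-box was found in the ATF4 windows alone among the regulators, at -82 and -85 from its 2 start sites, and over an annotated exon. It was present in 7.26% of all windows. The cAMP response element was in 1.85% of all windows and in no window of the regulators. Of the 3 genes with a CARE core, CEBPG was far lower with LAST shRNA, whereas ATF3 and CHAC1 lay between the thresholds. A match is a description of the letters and does not show binding.

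Levels were deposited as FPKM, fragments scaled to transcript length and library size. The log2 ratio used throughout takes 1 FPKM as pseudocount, that is log2(FPKM + 1) of the knockdown library less that of the control library, and it understates differences of genes with low values. A gene is called lower at -0.58 or below and higher at 0.58 or above. By this measure 5 of the 10 regulators were lower with LAST shRNA (ATF4, CEBPG, DDIT3, TRIB3 and SESN2), none was higher, and 5 lay between the thresholds. Over all records, 5.88% were lower and 6.80% were higher. Because the genes were chosen from this contrast, nothing is read from the count against that background. The log2 ratios of the 10 genes ran from -4.33 to 0.35 with a median of -0.68, beside a median of 0.01 and an SD of 0.52 over all records.

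**Figure D1:**
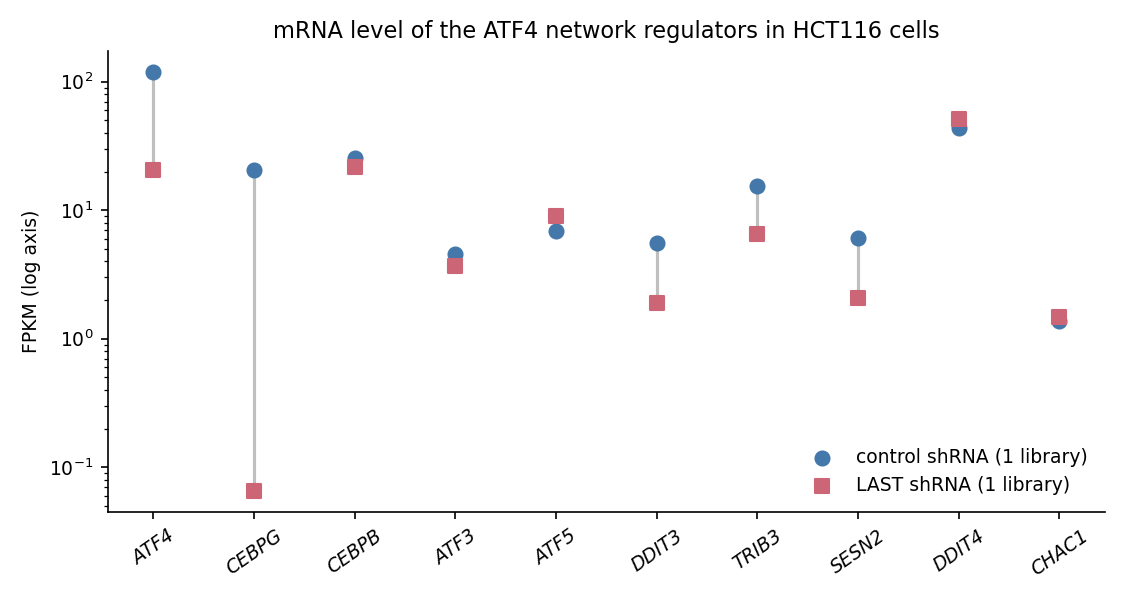
FPKM of the 10 regulators on a log axis, with 1 circle for the control shRNA library and 1 square for the LAST shRNA library. The 2 symbols are widely apart for ATF4 (120 and 20.5) and CEBPG (20.4 and 0.0654) and nearly coincide for CEBPB, DDIT4 and CHAC1.

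ATF4 (ENSG00000128272.14_1, hg19 chr22:39915700-39918690, plus strand), the hub of the network, stood at 120 FPKM with control shRNA and 20.5 FPKM with LAST shRNA. It was 5.83-fold lower, with a log2 ratio of -2.49, the 37th lowest of the 11420 records. In the control library it was the most abundant of the 10 mRNAs and exceeded 98.6% of all records. With LAST shRNA it ranked 3rd of the 10 and exceeded 85.6% of records, so it remained a well expressed mRNA. GENCODE names 4 pseudogenes of ATF4, whose reads could be shared with it, and their part was not tested. In bulk RNA, fewer cells expressing a gene and less mRNA per cell cannot be told apart.

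ATF4 accounted for much of the summed signal of the group. The FPKM of the 10 genes summed to 249 with control shRNA and 119 with LAST shRNA, 2.09-fold lower. ATF4 made up 48.1% of the first sum and 17.3% of the second. Without ATF4 the sums were 129 and 98.3.

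The 2 C/EBP proteins that pair with ATF4 differed widely. CEBPG (hg19 chr19:33864236-33873592, plus strand) encodes C/EBPγ, a short bZIP protein that lacks a classical activation domain and forms heterodimers with ATF4. Its mRNA stood at 20.4 FPKM with control shRNA and 0.0654 FPKM with LAST shRNA. The log2 ratio of -4.33 was the second lowest of all records. Its FPKM values differed 312-fold, a ratio that rests on a value near 0 at a depth that is unknown. CEBPG exceeded 85.3% of all records in the control library and 0.429% of them in the LAST shRNA library. CEBPG was thus close to the bottom of the table in the LAST shRNA library and near its upper part in the control library. The table holds no genes with very low values in both libraries, as described under the processing. A value near 0 in either library therefore falls near the bottom of these records. The 0.429% is a position among them and not among all genes.

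CEBPB (hg19 chr20:48807271-48809226, plus strand), an intronless gene for C/EBPβ, the other common partner of ATF4, stood at 25.6 FPKM with control shRNA and 21.8 FPKM with LAST shRNA. That is a log2 ratio of -0.23, well inside the thresholds. In the control library CEBPB was 1.25 times CEBPG in FPKM, and in the LAST shRNA library 333 times. CEBPB and ATF4 were close in level in the LAST shRNA library alone. The FPKM of ATF4 was 4.67 times that of CEBPB with control shRNA and 0.943 times with LAST shRNA. A paralogue, CEBPD, was at 5.26 and 6.77 FPKM (log2 ratio 0.31), so CEBPG was the only one of these 3 C/EBP mRNAs past a threshold.

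The other bZIP factors of the group lie downstream of ATF4 and did not share a direction. DDIT3 (hg19 chr12:57910371-57914300, minus strand) encodes CHOP, which drives the death branch of prolonged stress. It stood at 5.51 FPKM with control shRNA and 1.91 FPKM with LAST shRNA, 2.88-fold lower (log2 ratio -1.16). DDIT3 overlaps MARS, on the opposite strand, over 982 bp. MARS, a methionyl-tRNA synthetase and itself a known ATF4 target, was at 33.3 and 21.2 FPKM (-0.63). Use of strand in the counting is not given in the sources used here, so reads of the 2 genes may be mixed.

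ATF3 (hg19 chr1:212738676-212794119, plus strand), a stress-induced factor that acts mostly as a repressor, was at 4.58 FPKM with control shRNA and 3.70 FPKM with LAST shRNA (log2 ratio -0.25). ATF5 (hg19 chr19:50431959-50437192, plus strand), an ATF4 paralogue linked to the mitochondrial stress response, was at 6.90 and 9.10 FPKM (log2 ratio 0.35), the most positive ratio of the 10. Neither reached a threshold. ATF5 overlaps NUP62, a nuclear pore gene on the opposite strand, over 1062 bp, and NUP62 was at 13.7 and 9.36 FPKM (-0.50). ATF4 and its paralogue ATF5 therefore lay on opposite sides of 0.

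**Figure D2:**
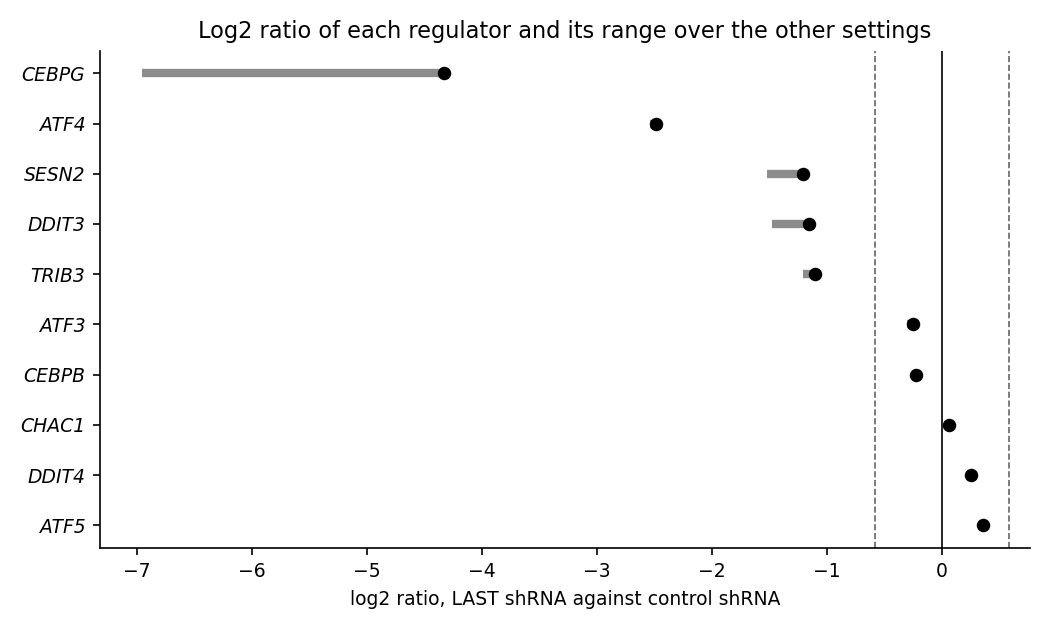
Log2 ratio of each regulator (point) and its lowest and highest value under other pseudocounts, scalings and a filter on low FPKM (bar), with dashed lines at -0.58 and 0.58. CEBPG has the widest bar, from -6.96 to -4.33, and no bar crosses a threshold or 0.

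TRIB3 (hg19 chr20:343479-378203, plus strand) is a pseudokinase that binds ATF4 and CHOP and restrains them, a feedback arm of the network. It stood at 15.3 FPKM with control shRNA and 6.57 FPKM with LAST shRNA, 2.33-fold lower (log2 ratio -1.11). Of the 5 regulators called lower, TRIB3 was the one nearest to the threshold, and ATF5 at 0.35 was the nearest of the other 5. Its paralogues did not share the lower value. TRIB1 was at 79.4 and 74.2 FPKM (-0.10), and TRIB2 at 2.52 and 4.15 FPKM (0.55).

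SESN2 and DDIT4 both restrain mTORC1, the kinase complex that couples nutrients to growth. SESN2 (hg19 chr1:28586038-28609002, plus strand) is a leucine sensor that binds GATOR2. It stood at 6.13 FPKM with control shRNA and 2.08 FPKM with LAST shRNA, 2.96-fold lower (log2 ratio -1.21). DDIT4 (hg19 chr10:74033678-74035794, plus strand), or REDD1, acts through the TSC complex. It stood at 43.3 FPKM with control shRNA and 51.6 FPKM with LAST shRNA (log2 ratio 0.25). The 2 mTORC1 inhibitors thus had ratios of opposite sign. The FPKM of DDIT4 was 7.06 times that of SESN2 in the control library and 24.9 times in the LAST shRNA library. DDIT4 was also 0.362 times ATF4 in the control library and 2.51 times in the LAST shRNA library, where it was the most abundant of the 10 mRNAs.

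CHAC1 (hg19 chr15:41245160-41248717, plus strand), a gamma-glutamylcyclotransferase that breaks down glutathione, was the least abundant regulator in the control library. It stood at 1.36 FPKM with control shRNA and 1.47 FPKM with LAST shRNA, a log2 ratio of 0.06, the smallest in size of the 10. Its paralogue CHAC2, which acts on glutathione more slowly, was at 10.5 and 2.65 FPKM (log2 ratio -1.65). In this pair the lower value was seen in the paralogue that was not among the regulators. The ATF4 level was 87.8 times that of CHAC1 in the control library and 14.0 times in the LAST shRNA library.

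Levels of the lower regulators DDIT3, SESN2 and TRIB3 were also set against that of ATF4. The FPKM of ATF4 was 21.7 times that of DDIT3 with control shRNA and 10.7 times with LAST shRNA. Against SESN2 the ATF4 level was 19.5 and 9.89 times, and against TRIB3 it was 7.81 and 3.12 times. In each pair the ATF4 mRNA stood closer to its target in the LAST shRNA library. The order of levels also differed between libraries, since ATF4, DDIT4, CEBPB, CEBPG and TRIB3 led with control shRNA and DDIT4, CEBPB, ATF4, ATF5 and TRIB3 led with LAST shRNA. With 1 library per group, it cannot be said which neighbours in these orders differ beyond replicate spread.

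**Figure D3:**
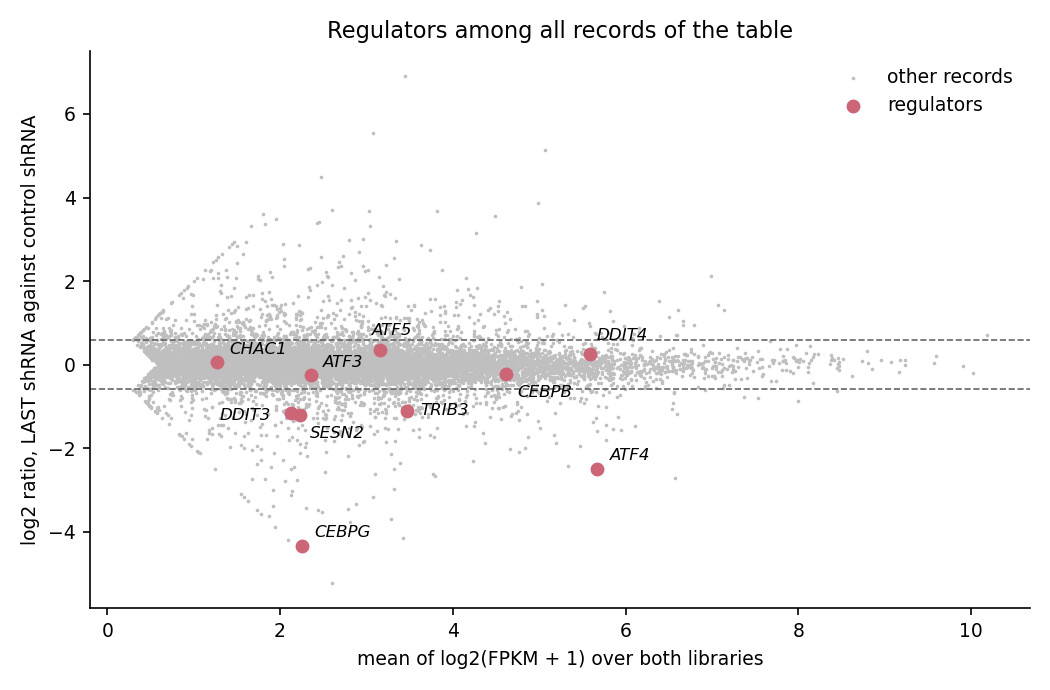
Log2 ratio of all 11420 records (grey) against their mean log2(FPKM + 1) over both libraries, with the 10 regulators in red and dashed lines at -0.58 and 0.58. ATF4 lies among the more abundant mRNAs at -2.49, CEBPG near the lower edge at -4.33, and DDIT3, SESN2 and TRIB3 between -1.21 and -1.11.

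By the distance of log2(FPKM + 1) over both libraries, the genes most like ATF4 in this table were SLC1A5 (distance 0.470), MAL2 (0.479) and TOMM20 (0.507). SLC1A5, a glutamine transporter, was at 86.5 FPKM with control shRNA and 21.6 FPKM with LAST shRNA (-1.95). MAL2, a membrane traffic protein, was at 92.5 and 16.4 FPKM (-2.43), and TOMM20, a mitochondrial import receptor, at 101 and 28.3 FPKM (-1.80). With 2 libraries, likeness here means only a similar level in each.

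Features of the transcripts were not used in the choice, and none of those examined set all 10 genes on 1 side of the table's median. In the longest coding transcript of GENCODE 29, their median length was 2026 bases, beside 3388 over all records. They had a median of 3 exons, beside 9, and a median GC content of 58.8%, beside 49.2%. CEBPG and SESN2 were longer than the median record, SESN2 had 10 exons, and CEBPG had a GC content of 43.9%. The letters GGAG, which the RNA-binding protein CNBP, the study's partner of LAST, is known to prefer, occurred at a median of 9.67 per kb of transcript, beside 7.02. This density ran from 4.87 in CEBPG to 12.7 in SESN2. It was nearly alike in the lower regulators (median 9.60) and the other regulators (9.73). The letters were counted over whole transcripts, whereas the paper places CNBP on the 5' untranslated region of the CCND1 mRNA. Any part of CNBP in these ratios was not tested.

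The largest exon held 51.4% to 100% of the transcript in the 10 genes, with a median of 65.9%, beside 53.7% over all records. Ratios were more widely spread in records with 1 dominant exon. Among records whose largest exon held under 20%, 1.10% were lower, 1.83% were higher and the SD of the log2 ratio was 0.25. From 80 to 100%, the class of CEBPG and CEBPB, 11.1% were lower, 11.8% were higher and the SD was 0.83. ATF4, DDIT3, TRIB3 and SESN2 lay in the class from 40 to 60%, where 5.61% of records were lower. ATF3, ATF5, DDIT4 and CHAC1, in the class from 60 to 80%, were all between the thresholds. The lower regulators had a median largest exon of 54.9% and the other regulators one of 73.2%, and the part of exon structure in their ratios was not tested.

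**Figure D4:**
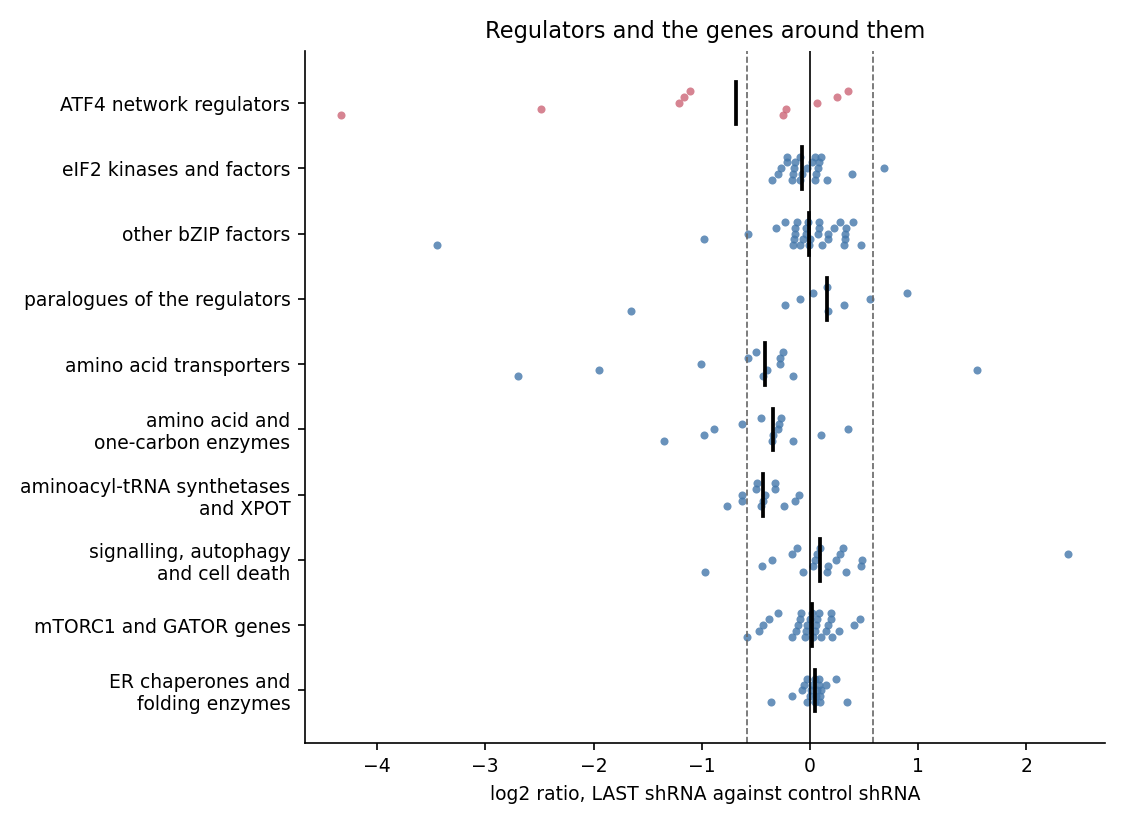
Log2 ratio of the 10 regulators (red) and of the measured genes of 9 lists around them (blue), 1 point per gene, with the median of each list as a black bar and dashed lines at -0.58 and 0.58. Medians of amino acid transporters, enzymes and tRNA synthetases lie between -0.43 and -0.34, and those of the other blue lists between -0.07 and 0.16.

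Upstream of ATF4, 23 of 23 listed eIF2alpha kinases and eIF2 factors were measured, with a median log2 ratio of -0.07. None was lower and 1 was higher, beside 5.88% lower and 6.80% higher over all records. The 1 higher gene was EIF2AK2, the double-stranded RNA sensor PKR, at 12.0 and 19.9 FPKM (0.68). The kinase PERK (EIF2AK3) was at 3.60 and 5.03 FPKM (0.39), GCN2 (EIF2AK4) at 6.53 and 6.77 FPKM (0.05), and HRI (EIF2AK1) had a ratio of -0.02. EIF2B1, a subunit of the eIF2 exchange factor, had a ratio of 0.02. PPP1R15A, or GADD34, an ATF4 and CHOP target that returns eIF2alpha to its resting state, was at 13.5 and 10.4 FPKM (-0.35). PPP1R15B, a partner of PPP1 in the same step, was at 0.745 and 0.423 FPKM (-0.29). It was past the lower threshold with a pseudocount of 0.1 and with TPM, which here acts as a smaller pseudocount. The count of none lower therefore depends on the pseudocount.

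The 3 lists of ATF4 targets in amino acid supply had medians below the table's median of 0.01. These lists were chosen with earlier results of these data known, so nothing is read from their counts. The counts stand beside 5.88% lower and 6.80% higher over all records. Of 12 measured amino acid transporters (13 listed), 3 were lower, 1 was higher, 11 were below 0 and the median was -0.41. SLC7A5, a leucine carrier, was at -2.70, SLC1A5 at -1.95, and SLC7A11, the cystine carrier that feeds glutathione synthesis, at -1.01 (18.0 and 8.43 FPKM). SLC7A1, a carrier of arginine and lysine, was higher, at 9.11 and 28.4 FPKM (1.54). SLC1A3 (-0.16) and SLC38A1 (-0.25) were nearest to 0. SLC7A1 alone was past the upper threshold in this class, and the part of ATF4 in these ratios was not tested.

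Of 13 measured amino acid and one-carbon enzymes (15 listed), 4 were lower, none was higher, 11 were below 0 and the median was -0.34. The lower ones were ASNS, asparagine synthetase (-1.35), PHGDH, the first enzyme of serine synthesis (13.6 and 6.43 FPKM, -0.97), GOT1, aspartate aminotransferase (35.5 and 18.7 FPKM, -0.89), and PCK2, mitochondrial PEP carboxykinase (6.95 and 4.14 FPKM, -0.63). PSAT1, next to PHGDH in the serine route, was at 0.10 and CTH at -0.15. The tRNA synthetase list, which counts the tRNA exporter XPOT among its 13 genes, had a median of -0.43, beside 0.01 over all records. All 13 genes were below 0, from which nothing is read, and 3 of them were lower. These were YARS (29.4 and 16.8 FPKM, -0.77), AARS (38.0 and 24.2 FPKM, -0.63) and MARS (-0.63), while LARS (-0.11) and NARS (-0.14) were nearest to 0.

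Other branches around the regulators lay near the table's median. Nothing is read from their counts, which stand beside 5.88% lower and 6.80% higher over all records. Of 19 measured ATF4 and CHOP targets in signalling, autophagy and cell death (24 listed), 1 was lower and 1 was higher. Of the 19, 6 were below 0, and the median was 0.09. TNFRSF10B, the death receptor that CHOP induces, was the lower gene, at 14.7 and 7.04 FPKM (-0.97). The death genes BBC3 (0.24), PMAIP1 (0.27) and BCL2L11 (0.31) lay above 0. Any relation of these values to DDIT3 was not tested. MAP1LC3B, an autophagosome protein, was at 3.10 and 20.5 FPKM (2.39), while SESN1 (0.03) and STC2 (0.05) were nearest to 0. Among 31 measured other bZIP factors (45 listed), 2 were lower, JUND (21.7 and 1.09 FPKM, -3.44) and NFE2L1 (25.5 and 12.4 FPKM, -0.98), none was higher (1 with a smaller pseudocount or TPM) and the median was -0.01. ATF6 and FOSL1 (-0.01) were nearest to 0. JUND and CEBPG were the bZIP mRNAs with the lowest ratios, below ATF4. The largest exon held 100% of the JUND transcript and 86.2% of that of CEBPG. Both fall in the exon class with the widest spread of ratios (SD 0.83).

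All 21 listed chaperones and folding enzymes of the endoplasmic reticulum were measured and none reached a threshold, with ratios from -0.36 to 0.34 and a median of 0.05. DNAJB11 (0.01) and ERN1, the sensor IRE1, were nearest to 0. Any relation of these mRNAs to the DDIT3 value was not tested. Over all records 5.88% were lower and 6.80% higher, and nothing is read from the counts of these lists beside that. Of 29 measured mTORC1 and GATOR genes (31 listed), 1 was lower, MTOR at 11.5 and 7.33 FPKM (-0.58), none was higher (1 with a pseudocount of 0.1 or TPM) and the median was 0.02, with LAMTOR5 and MLST8 (0.02) nearest to 0. MTOR sat at the threshold and was not past it once upper quartiles were made equal. Among 9 measured paralogues of the regulators (12 listed), CHAC2 was lower, DDIT4L, a paralogue of DDIT4, was higher (1.30 and 3.28 FPKM, 0.90), and the median was 0.16.

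Over the whole table, the control and the knockdown library had summed FPKM of 154798 and 155390 and median FPKM of 5.20 and 5.25. Of 12 epithelial and intestinal markers, 9 were measured, none was lower and 1 was higher, with EPCAM at 137 and 139 FPKM, KRT8 at 234 and 215 FPKM and KRT18 at 271 and 294 FPKM. Of 16 markers of other cell types, 2 were measured, and they summed to 2.89 and 5.16 FPKM (COL1A1 1.32 and 1.90, CD68 1.58 and 3.26). EPCAM, KRT8 and KRT18 were thus abundant in both libraries, but not all listed markers were. CDX2 was at 1.58 and 1.02 FPKM and CLDN4 at 0.508 and 0.349 FPKM, while VIL1, CDX1 and CLDN3 had no record. The higher marker, KRT20, an intestinal differentiation keratin, was at 0.767 and 3.62 FPKM (1.39) beside the 5 lower regulators. The part of these markers in the regulators' values was not tested.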

How the data were processed

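Total RNA of HCT116 cells was profiled with a stranded library kit in 1 library per group. The submitters' processing notes list cutadapt, FastQC, HISAT2, StringTie and build hg19. Their versions, and whether fragments were counted by strand, were not given in the sources used here. The authors deposited FPKM per protein-coding gene, and every record reached 0.500 in at least 1 library. No counts were used and the depth is unknown, so no interval, floor or test was computed. The table also holds no replicate columns.

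Values were taken as deposited. Log2 ratios used a pseudocount of 1 and the study's threshold of 0.58 on that scale. Python 3.11.15, numpy 2.4.6 and pandas 2.3.3 were used, and the code was tested on simulated data. Transcript features came from GENCODE 29 by gene ID (11314 records, 99.1%, matched) with no coordinates taken from it. Promoter windows came from RefSeq on GRCh38.p14, matched by symbol for 10 of 10 genes. All other positions are hg19, from the deposited table.

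The regulators and gene lists were chosen with earlier results of these data known. Named genes were the regulators, the 3 records nearest to ATF4, and in each list up to 6 genes past the threshold that reached an FPKM of 1 in either library and the 2 nearest to 0 among those at 1 or more in both. Markers at an FPKM of 1 or more in a library could be named too. PPP1R15A, PPP1R15B, the other eIF2alpha kinases, TRIB2, CEBPD, CLDN4 and the epithelial markers without a record were named after the values were seen. So were BBC3, PMAIP1 and BCL2L11. Alternatives were pseudocounts of 0.1 and 0.5, 3 other scalings, a filter at an FPKM of 1, a threshold of 1, and 2 subsets of records.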

Additional observations from a re-analysis of the deposited data

How the results depend on the processing

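The 5 lower regulators stayed lower, with none higher, under pseudocounts of 0.1 and 0.5, 3 other scalings and a threshold of 1. All 59 recomputed ratios of the regulators kept their sign and side of the threshold. For the lower regulators these settings could hardly have given another outcome. Smaller pseudocounts enlarge a ratio and the filter leaves it unchanged. Setting the median log2 ratio to 0 or making upper quartiles equal moved ATF4 only to -2.49 and -2.48. ATF4 lay between -2.54 and -2.48, CEBPG between -6.96 and -4.33 and SESN2 between -1.52 and -1.21. DDIT3 lay between -1.48 and -1.16 and TRIB3 between -1.21 and -1.10. A filter at an FPKM of 1 in both libraries removed CEBPG, leaving 4 of 9 lower and a median of -0.25 in place of -0.68. Over all records, 672 were lower and 777 higher. A threshold of 1 gave 286 and 318, a pseudocount of 0.1 gave 999 and 1242, and TPM gave 978 and 1198. The TPM setting raised the summed FPKM of 154798 and 155390 to 1000000 and kept a pseudocount of 1. It therefore acted mainly as a smaller pseudocount and is not a separate check. Among the 5088 records whose largest exon held under 50%, a subset chosen after seeing the data, 158 were lower and 198 higher, and it held none of the regulators. Without records that overlap another, also chosen after seeing the data, 4 of 8 regulators were lower, ATF5 and DDIT3 being left out, with a median of -0.68. Of 132 recomputed counts over the gene lists, 20 differed from the main count by over 1.5 times. With a pseudocount of 0.1 and with TPM, lower genes numbered 1 in place of 0 among eIF2 factors, 2 in place of 1 among CHOP and ATF4 signalling targets and among mTORC1 genes, and 5 and 6 in place of 3 among amino acid transporters. Higher genes numbered 1 in place of 0 among other bZIP factors and mTORC1 genes and 2 in place of 1 among paralogues. No paired analysis was possible because there is 1 library per group, and for the same reason no library could be left out.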
